A study of Mus musculus with 35 samples.

Results

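The 7 genes described here encode the SNARE fusion machinery and its regulators: *Snap25*, *Stx1a*, *Stx4a*, *Vamp1*, *Nsf*, *Napb* and *Cplx1*. They were chosen by name from the 760 genes of a NanoString nCounter panel for Alzheimer disease, measured in hippocampal RNA of 35 mice, and all 7 had a value in every mouse. The assay counts fluorescent barcodes bound to each RNA, and each value here is a count normalized by the authors, on the log2 scale, so a difference of 1 is a doubling. All mice were 18 months old, on a C57BL6/J background, and were given vehicle or Urolithin A for 5 months. Urolithin A, a gut microbial metabolite known to stimulate mitophagy, was given by mouth at 200 mg/kg per day.

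The ADPolB_UA group held 6 Urolithin A-treated mice (2 males, 4 females), and ADPolB_veh 7 vehicle-treated mice (4 males, 3 females). Both carried the 3xTgAD alleles, which the labels write with Tg(APPSwe,tauP301)L1Lfa, together with 1 lost copy of *Polb* (Polbtm1Rsky, heterozygous), the gene of a DNA repair polymerase. The AD_UA group held 7 Urolithin A-treated mice (4 males, 3 females) and AD_veh 8 vehicle-treated mice (4 males, 4 females), with the 3xTgAD alleles alone. The WT_veh group held 7 vehicle-treated wild-type mice (3 males, 4 females). No wild-type mice received Urolithin A and none carried the *Polb* deletion alone, so the effect of either could be measured only in mice with the 3xTgAD alleles. In the 3xTgAD line as generally described, the human APP and tau transgenes are driven by a neuronal Thy1 cassette; the labels give no promoter.

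SNARE proteins pull a vesicle and its target membrane together by winding into a shared bundle of helices. At the synapse, synaptobrevin on the vesicle pairs with syntaxin and SNAP-25 on the plasma membrane, complexin holds the assembled bundle ready for a calcium signal, and the ATPase NSF with its SNAP adaptors takes used bundles apart so that their parts can be used again. In the hippocampus this cycle supports transmitter release at glutamate and GABA synapses. In bulk tissue, fewer cells of a type and less RNA per cell cannot be told apart.

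Promoter sequences from RefSeq (GRCm38.p6) were matched by symbol for 6 of the 7 genes, all but *Snap25*. The 250 bases before the annotated start are printed for 4 genes, because *Stx1a* and *Napb* varied together over the mice, *Stx4a* ran opposite to *Napb*, and *Vamp1* ran with neither. Each runs 5′ to 3′ on the strand of the gene, and capitals mark a GC box (GGGCGG, or CCGCCC for the other strand) or a CCAAT box (CCAAT, or ATTGG for the other strand).
Stx1a, chr5:135023232-135023481, plus strand: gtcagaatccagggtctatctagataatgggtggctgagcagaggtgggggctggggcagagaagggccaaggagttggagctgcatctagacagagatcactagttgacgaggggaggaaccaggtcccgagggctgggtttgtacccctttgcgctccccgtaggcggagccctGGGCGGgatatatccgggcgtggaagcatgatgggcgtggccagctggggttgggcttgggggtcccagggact
Napb, chr2:148732421-148732670, minus strand: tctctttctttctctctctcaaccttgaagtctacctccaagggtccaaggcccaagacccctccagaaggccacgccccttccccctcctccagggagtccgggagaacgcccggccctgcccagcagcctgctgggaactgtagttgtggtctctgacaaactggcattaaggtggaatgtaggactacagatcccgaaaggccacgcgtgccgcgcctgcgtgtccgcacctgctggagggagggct
Stx4a, chr7:127841558-127841807, plus strand: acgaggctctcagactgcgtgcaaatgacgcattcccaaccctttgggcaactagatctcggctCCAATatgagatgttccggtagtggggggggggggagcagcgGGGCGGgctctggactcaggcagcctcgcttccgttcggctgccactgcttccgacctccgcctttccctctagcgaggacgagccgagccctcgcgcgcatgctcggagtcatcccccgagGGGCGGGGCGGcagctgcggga
Vamp1, chr6:125215331-125215580, plus strand: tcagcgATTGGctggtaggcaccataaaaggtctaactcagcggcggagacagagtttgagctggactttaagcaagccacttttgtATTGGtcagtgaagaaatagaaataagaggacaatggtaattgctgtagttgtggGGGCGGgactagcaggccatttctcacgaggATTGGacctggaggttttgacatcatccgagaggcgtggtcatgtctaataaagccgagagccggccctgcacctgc

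The *Stx1a* window held 1 GC box and 0 CCAAT boxes, and the *Napb* window held neither. The *Stx4a* window held 3 GC boxes, of which 1 pair shares a base, and 1 CCAAT box. The *Vamp1* window held 1 GC box and 3 CCAAT boxes. Among 32851 promoter windows of the same length, 32.7% held a GC box and 33.8% a CCAAT box. GC content was 62.0% for *Stx1a*, 61.2% for *Napb*, 66.4% for *Stx4a* and 50.4% for *Vamp1*, where the median window had 52.4%. These matches describe the sequence and were not tested as sites.

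Across the 35 mice, the median over all 760 genes lay between 8.595 and 9.115 per mouse, and with no barcode counts to set a depth, the precision rests on how many mice were measured. The labels do not say whether mice of a group shared a litter. Genes of myelin differed widely between mice: the mean of 24 measured genes of a 37-gene oligodendrocyte and myelin list was 10.14 ± 0.65 (SD, n = 6) in ADPolB_UA, 10.30 ± 0.57 (n = 7) in ADPolB_veh, 9.77 ± 0.46 (n = 7) in AD_UA, 10.08 ± 0.66 (n = 8) in AD_veh and 9.58 ± 0.84 (n = 7) in WT_veh. The 1 gene measured of a 7-gene choroid plexus list ran from 9.28 in WT_veh 1 to 14.63 in ADPolB_veh 7. Its median was 12.955 in ADPolB_UA, 12.07 in ADPolB_veh, 10.42 in AD_UA, 10.39 in AD_veh and 11.84 in WT_veh. How it related to the genes described here was not tested. Of the hippocampal markers listed, *Nptx2* alone was on the panel, at 6.32 to 8.98, and no excitatory neuron marker was. *Adora2a*, an adenosine receptor gene of the striatum, was at 9.85 in AD_veh 2, 8.60 in AD_UA 3 and 7.13 in AD_UA 8, and at 6.07 or less in the other 32 mice. *Pde1b*, a striatal phosphodiesterase gene, was highest in the same 3 mice, at 11.27 in AD_veh 2, 10.24 in AD_UA 3 and 9.73 in AD_UA 8, and at 9.07 or less in the others. ADPolB_UA 6 held both of these next values (6.07 and 9.07), beside ADPolB_UA medians of 3.50 for *Adora2a* and 8.025 for *Pde1b*. Beside the comparisons that include AD_veh or AD_UA, values without AD_veh 2, AD_UA 3 or AD_UA 8 are given where they moved a difference or its sign.

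*Stx1a*, which encodes the neuronal plasma-membrane syntaxin 1A, was the most variable of the 7 genes. Its SD within groups, after sex, was 0.63, the 57th largest of 760 genes, against a median of 0.27 over all genes. The lowest, median and highest values were 8.58, 9.395 and 10.81 in ADPolB_UA, 8.77, 9.25 and 9.68 in ADPolB_veh, 9.09, 9.94 and 11.07 in AD_UA, 7.89, 9.37 and 10.07 in AD_veh, and 9.37, 9.89 and 10.77 in WT_veh. ADPolB_veh mice were the most alike and had no value above 9.68, and AD_UA held the highest mouse and AD_veh the lowest, yet every pair of groups next to each other in rank overlapped. Group means ran AD_UA, WT_veh, ADPolB_UA, AD_veh and ADPolB_veh from high to low, and the largest step put ADPolB_UA 0.38 below WT_veh.

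*Snap25*, the gene of the second plasma-membrane SNARE of the synapse, had a lowest, median and highest value of 12.01, 12.485 and 12.99 in ADPolB_UA, 12.14, 12.32 and 12.85 in ADPolB_veh, 12.36, 12.56 and 13.47 in AD_UA, 11.68, 12.595 and 12.85 in AD_veh, and 12, 12.62 and 12.78 in WT_veh. Only AD_UA reached above 13, in AD_UA 8. The means ran AD_UA, WT_veh, AD_veh, ADPolB_UA and ADPolB_veh from high to low.

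*Vamp1*, the gene of synaptobrevin 1 on the vesicle, had a lowest, median and highest value of 9.24, 9.865 and 10.59 in ADPolB_UA, 9.36, 9.73 and 10.47 in ADPolB_veh, 9.49, 9.84 and 10.53 in AD_UA, 9.29, 9.825 and 10.02 in AD_veh, and 9.19, 9.62 and 10.17 in WT_veh. All 5 ranges overlapped, and the means ran ADPolB_UA (9.94), AD_UA, ADPolB_veh, AD_veh and WT_veh (9.70) from high to low. *Stx4a* encodes syntaxin 4, a plasma-membrane syntaxin of many cell types that is best known from glucose transporter delivery in fat and muscle. It had the smallest SD within groups of the 7 genes, 0.21. Its lowest, median and highest values were 8.97, 9.31 and 9.57 in ADPolB_UA, 8.81, 9.29 and 9.51 in ADPolB_veh, 9.06, 9.17 and 9.36 in AD_UA, 8.92, 9.085 and 9.74 in AD_veh, and 8.98, 9.24 and 9.40 in WT_veh. AD_veh held the highest mouse and yet the lowest group mean, below ADPolB_UA, ADPolB_veh, AD_UA and WT_veh in descending order.

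The genes of the recycling step had their lowest values in AD_veh 2. *Nsf*, the ATPase that takes SNARE bundles apart, had a lowest, median and highest value of 12.88, 13.325 and 13.39 in ADPolB_UA, 12.85, 13.15 and 13.44 in ADPolB_veh, 12.92, 13.12 and 13.37 in AD_UA, 12.27, 13.19 and 13.50 in AD_veh, and 12.91, 13.28 and 13.41 in WT_veh. Its group means lay between 13.15 and 13.23, the closest of the 7 genes, with WT_veh first and ADPolB_veh last. *Napb*, the brain-enriched adaptor beta-SNAP that joins NSF to the bundle, had 11.81, 12.275 and 12.67 in ADPolB_UA, 11.81, 12.03 and 12.49 in ADPolB_veh, 12.10, 12.27 and 12.55 in AD_UA, 11.09, 12.315 and 12.58 in AD_veh, and 11.92, 12.61 and 12.84 in WT_veh, in the same order. The ADPolB_veh median was the lowest of the 5 and the WT_veh median the highest, and the means ran WT_veh, AD_UA, ADPolB_UA, AD_veh and ADPolB_veh. *Cplx1*, which encodes complexin 1, had 9.65, 10.375 and 10.77 in ADPolB_UA, 9.53, 10.19 and 10.50 in ADPolB_veh, 10.24, 10.44 and 10.86 in AD_UA, 10.09, 10.315 and 10.55 in AD_veh, and 9.75, 10.31 and 10.75 in WT_veh. Both 3xTgAD groups without the *Polb* deletion stayed above 10, whereas the other 3 groups each had mice below it, and the means ran AD_UA, AD_veh, ADPolB_UA, WT_veh and ADPolB_veh. For all 7 genes, groups next to each other in rank overlapped and their means lay within 0.603 of the SD within groups.

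**Figure D1:**
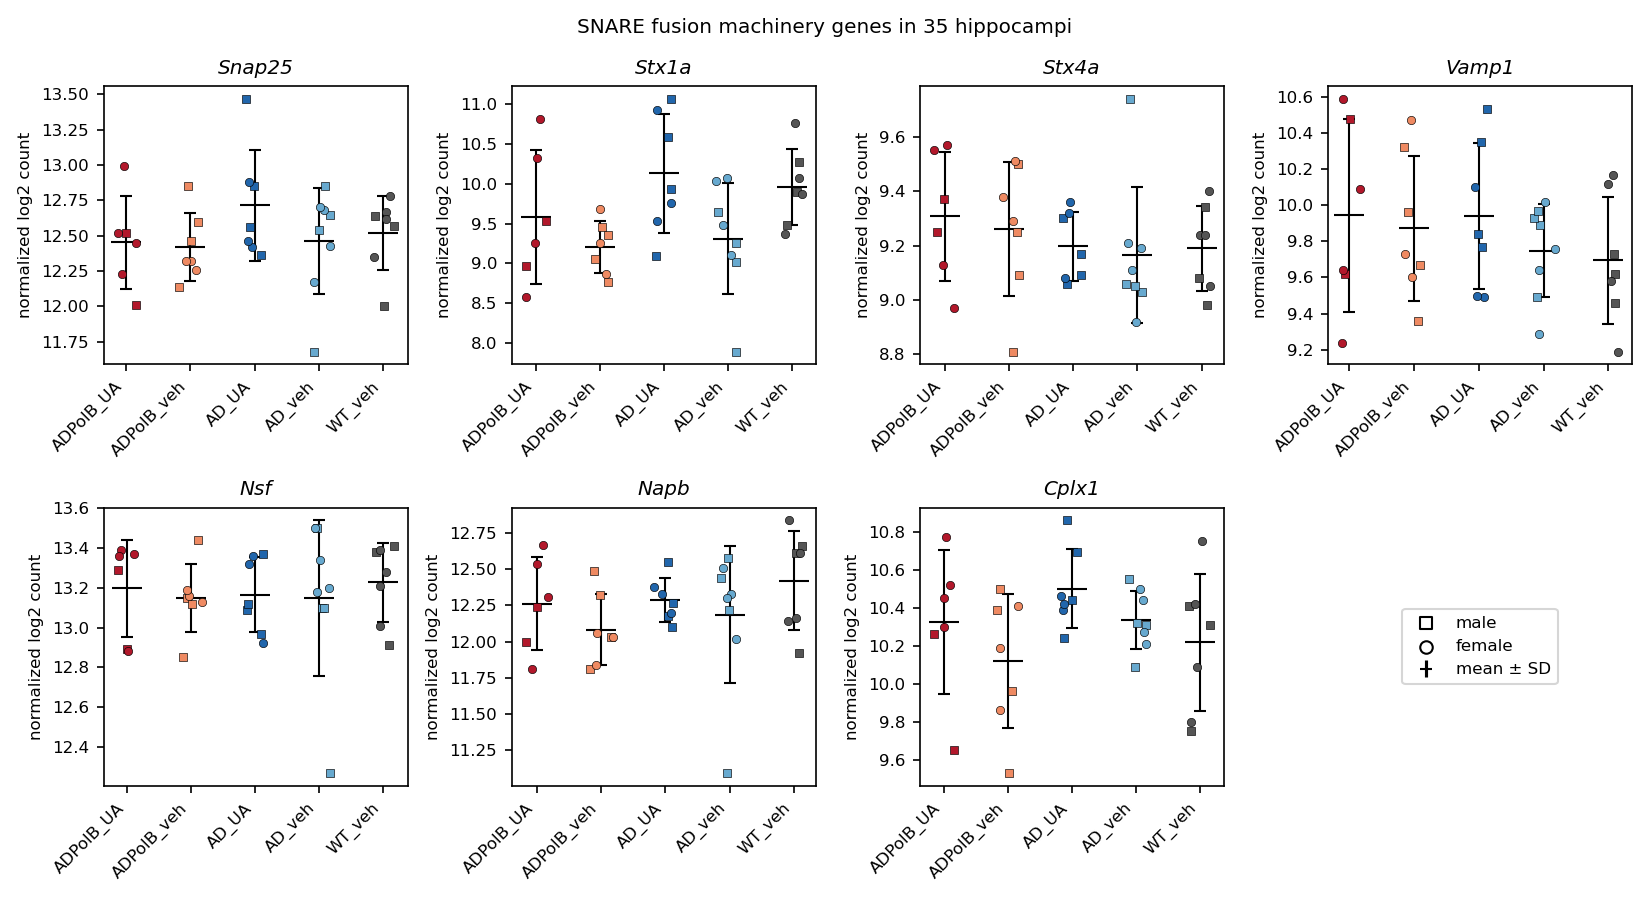
Normalized log2 counts of the 7 genes (y axis, 1 panel a gene) in the 5 groups (x axis), with 1 point a mouse, squares for males, circles for females, and bars for mean ± SD. The groups overlap in every panel, and AD_veh 2 is the lowest mouse for *Snap25* (11.68), *Stx1a* (7.89), *Nsf* (12.27) and *Napb* (11.09) and the highest for *Stx4a* (9.74).

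The comparison of AD_veh with WT_veh concerns the 3xTgAD genotype. *Stx1a* averaged 9.31 ± 0.70 (SD, n = 8) in AD_veh, against 9.96 ± 0.48 (n = 7) in WT_veh, a difference of -0.63 (SE 0.32, 0.647-fold) that did not pass the test (limma, adjusted p = 0.588; unadjusted p = 0.0553). Of the 8 AD_veh mice, 6 lay below the WT_veh mean and 4 below every WT_veh mouse. *Napb* differed by -0.23 (SE 0.17, adjusted p = 0.625), and the other 5 genes by -0.07 to 0.13. None of the 7 genes was called at an adjusted p below 0.05, where 1 of 760 genes was (0.132%), and none had an unadjusted p below 0.05, where 50 did (6.58%). That count among the 7 was 1 when WT_veh 3, WT_veh 5, AD_veh 1, AD_veh 3 or AD_veh 5 was left out. The mean was lower in AD_veh for 5 of the 7 genes, with a median difference of -0.06, beside 39.2% of all genes and a median of 0.04. Without AD_veh 2 the *Stx1a* difference was -0.45 (adjusted p = 0.876), and those of *Snap25* and *Nsf* changed sign, to 0.06 and 0.05. In the same comparison the AD_veh mean was the higher one for 23 of 24 myelin genes (median difference 0.55) and for 6 of 6 microglia genes (median 0.37). With the myelin list mean as a covariate the *Stx1a* difference was -0.25 (adjusted p = 0.827). With mice weighted by their variability as limma estimates it, that difference was -0.49 (adjusted p = 0.203).

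In ADPolB_veh against WT_veh, *Stx1a* averaged 9.20 ± 0.33 (SD, n = 7) in ADPolB_veh and 9.96 ± 0.48 (n = 7) in WT_veh. The difference was -0.72 (SE 0.33, 0.609-fold, 95% interval -1.38 to -0.05), with an unadjusted p of 0.0363 and an adjusted p of 0.180 by limma. All 7 ADPolB_veh mice lay below the WT_veh mean, and 5 lay below every WT_veh mouse. *Napb* averaged 12.08 ± 0.25 in ADPolB_veh, against 12.42 ± 0.34 in WT_veh (-0.33, SE 0.18, adjusted p = 0.216), with 6 of 7 ADPolB_veh mice below the WT_veh mean. *Vamp1* differed by 0.16 (SE 0.21), and *Snap25*, *Stx4a*, *Nsf* and *Cplx1* by -0.10 to 0.08. No gene of the 7 passed the adjusted threshold, nor did any of the 760 (0%). At an unadjusted p below 0.05, 1 of the 7 genes stood beside 196 of 760 (25.8%), so the share among the 7 was not above the background. That count was 0 without WT_veh 1, 2 or 6 or without ADPolB_veh 4, 6 or 7, and 2 without WT_veh 3, 5 or 8 or without ADPolB_veh 2. The lower mean in ADPolB_veh was shared by 5 of 7 genes, beside 38.6% of all genes, with a median difference of -0.08 beside 0.09 over all genes. In the same comparison all 24 myelin genes had a higher mean, with a median difference of 0.69, and 5 of 6 microglia genes did, with a median of 0.80. With the myelin list mean as a covariate the *Stx1a* difference was -0.17 (adjusted p = 0.854). With mice weighted by limma's estimate of their variability it was -0.90 (adjusted p = 0.00108). That setting also called *Napb* (-0.52, adjusted p = 0.000119), *Cplx1* (-0.30, adjusted p = 0.0297) and *Nsf* (-0.21, adjusted p = 0.0397). It called 441 of all 760 genes, and the 4 of 7 called here stood beside that share.

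The loss of 1 *Polb* copy was addressed by ADPolB_veh against AD_veh, and the 7 differences ran from -0.21 to 0.12. With all mice included *Cplx1* differed most, at 10.12 ± 0.35 (SD, n = 7) in ADPolB_veh and 10.34 ± 0.15 (n = 8) in AD_veh (-0.21, SE 0.15, adjusted p = 0.873 by limma), and 3 of 7 ADPolB_veh mice lay below every AD_veh mouse. *Stx1a* differed by -0.09, with a 95% interval of -0.73 to 0.56, which leaves room for a change of either sign. The intervals were narrower for *Nsf* (-0.26 to 0.27) and *Stx4a* (-0.12 to 0.33). None of the 7 genes passed either threshold. Of all genes 0 of 760 passed the adjusted one (0%) and 33 the unadjusted one (4.34%). The sizes depended on AD_veh 2, without which *Stx1a* differed by -0.28 (adjusted p = 0.592), *Napb* by -0.26 (adjusted p = 0.325), *Cplx1* by -0.20 and *Snap25* by -0.16. *Stx4a* was then at 0.19 and *Nsf* changed sign, to -0.12, and the unadjusted threshold was passed by 114 of 760 genes and by none of the 7. When mice were weighted by variability, *Napb* (-0.30, adjusted p = 0.0280) and *Stx4a* (0.24, adjusted p = 0.0254) passed, 2 of the 7 beside 209 of 760 genes.

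Urolithin A in 3xTgAD mice was addressed by AD_UA against AD_veh. *Stx1a* averaged 10.13 ± 0.75 (SD, n = 7) in AD_UA, against 9.31 ± 0.70 (n = 8) in AD_veh. This difference of 0.84 (SE 0.32, 1.79-fold, 95% interval 0.19 to 1.48) had the 13th smallest p of 760 genes (unadjusted p = 0.0124) and did not pass after adjustment (limma, adjusted p = 0.472). Of the 7 AD_UA mice, 6 lay above the AD_veh mean and 3 above every AD_veh mouse. In males *Stx1a* averaged 10.17 in AD_UA (n = 4) and 8.95 in AD_veh (n = 4), and in females 10.07 in AD_UA (n = 3) and 9.67 in AD_veh (n = 4). The males include AD_veh 2 (7.89), AD_UA 3 (10.59) and AD_UA 8 (11.07), the mice highest in *Adora2a* and *Pde1b*, and the females include none of them. Whether the sexes differed in this was not tested. *Snap25* averaged 12.71 ± 0.39 in AD_UA and 12.46 ± 0.38 in AD_veh (0.25, SE 0.17, adjusted p = 0.604), *Vamp1* differed by 0.18 (SE 0.20) and *Cplx1* by 0.17 (SE 0.15). The mean in AD_UA was higher for 7 of 7 genes, with a median difference of 0.17, where 271 of 760 genes had a higher mean and the median of all genes was -0.05. None of the 7 nor of the 760 genes passed the adjusted threshold (0%), and 1 of 7 had an unadjusted p below 0.05, beside 71 of 760 (9.34%).

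That count of 7 of 7 rested in part on AD_veh 2. AD_UA 8, the highest mouse for *Snap25* (13.47), *Stx1a* (11.07) and *Cplx1* (10.86), bore on the sizes. Without AD_veh 2 the *Stx1a* difference was 0.64 (adjusted p = 0.430), *Snap25* was at 0.13, and *Nsf* and *Napb* changed sign, to -0.10 and -0.06. Without both AD_veh 2 and AD_UA 3, *Stx1a* was at 0.55 (adjusted p = 0.913), and *Nsf* (-0.07) and *Napb* (-0.03) again stood below 0. Without AD_UA 8 alone, *Stx1a* was at 0.66 (adjusted p = 0.876), *Snap25* at 0.13, *Vamp1* at 0.093 and *Cplx1* at 0.10. Without AD_veh 2, AD_UA 3 and AD_UA 8, *Stx1a* was at 0.33 (adjusted p = 0.9998) and had an unadjusted p above 0.05, and *Snap25* (-0.04), *Nsf* (-0.06) and *Napb* (-0.07) lay below 0. In the same comparison 23 of 24 myelin genes had a lower mean in AD_UA, with a median difference of -0.31. With the myelin list mean as a covariate *Stx1a* differed by 0.61 (adjusted p = 0.265). When limma weighted the mice by variability, *Stx1a* differed by 0.41 (adjusted p = 0.361), and 0 of the 7 genes had an unadjusted p below 0.05.

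In ADPolB_UA against ADPolB_veh, *Stx1a* averaged 9.58 ± 0.84 (SD, n = 6) in ADPolB_UA and 9.20 ± 0.33 (n = 7) in ADPolB_veh, a difference of 0.31 (SE 0.34, adjusted p = 0.953 by limma). Its treated mice spread widely, with 2 of 6 above every ADPolB_veh mouse and 1 below every one. *Cplx1* differed by 0.18 (SE 0.16) and *Napb* by 0.16 (SE 0.18), with 5 of 6 and 4 of 6 treated mice above the ADPolB_veh mean. All 7 differences were above 0, at 0.02 to 0.31, where 354 of 760 genes had a higher mean. Their median was 0.09, beside -0.01 for all genes. None of the 7 genes had a p below 0.05, adjusted or not, where 0 of 760 genes passed the adjusted threshold (0%) and 43 the unadjusted one (5.66%). The direction of *Snap25*, *Stx4a*, *Vamp1* and *Nsf* turned when 1 mouse or another was left out. The *Stx1a* difference was 0.089 without ADPolB_UA 6 and 0.52 without ADPolB_UA 5, the ends of its range. In the same comparison 23 of 24 myelin genes had a lower mean in ADPolB_UA (median difference -0.14), and with the myelin list mean as a covariate *Stx1a* differed by 0.18 (adjusted p = 0.815).

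Whether Urolithin A acted differently in ADPolB and AD mice was tested as the difference between both effects. For *Stx1a* it was -0.53 (SE 0.47, 95% interval -1.48 to 0.42, adjusted p = 0.994 by limma) and for *Snap25* -0.22 (SE 0.25), and the other 5 lay between -0.09 and 0.06. Without AD_veh 2, AD_UA 3 and AD_UA 8 it was -0.03 for *Stx1a* and 0.06 for *Snap25*. None of the 7 genes passed either threshold, beside 0 of 760 (0%) with adjustment and 29 (3.82%) without. Males against females, over all groups, differed by -0.28 in *Stx1a* (SE 0.21, adjusted p = 0.840), -0.11 in *Nsf* (SE 0.09) and 0.09 in *Vamp1* (SE 0.13). The male mean was lower for 6 of 7 genes, as it was for 67% of all genes. None passed either threshold, where 0 of 760 genes (0%) and 65 of 760 (8.55%) did.

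**Figure D2:**
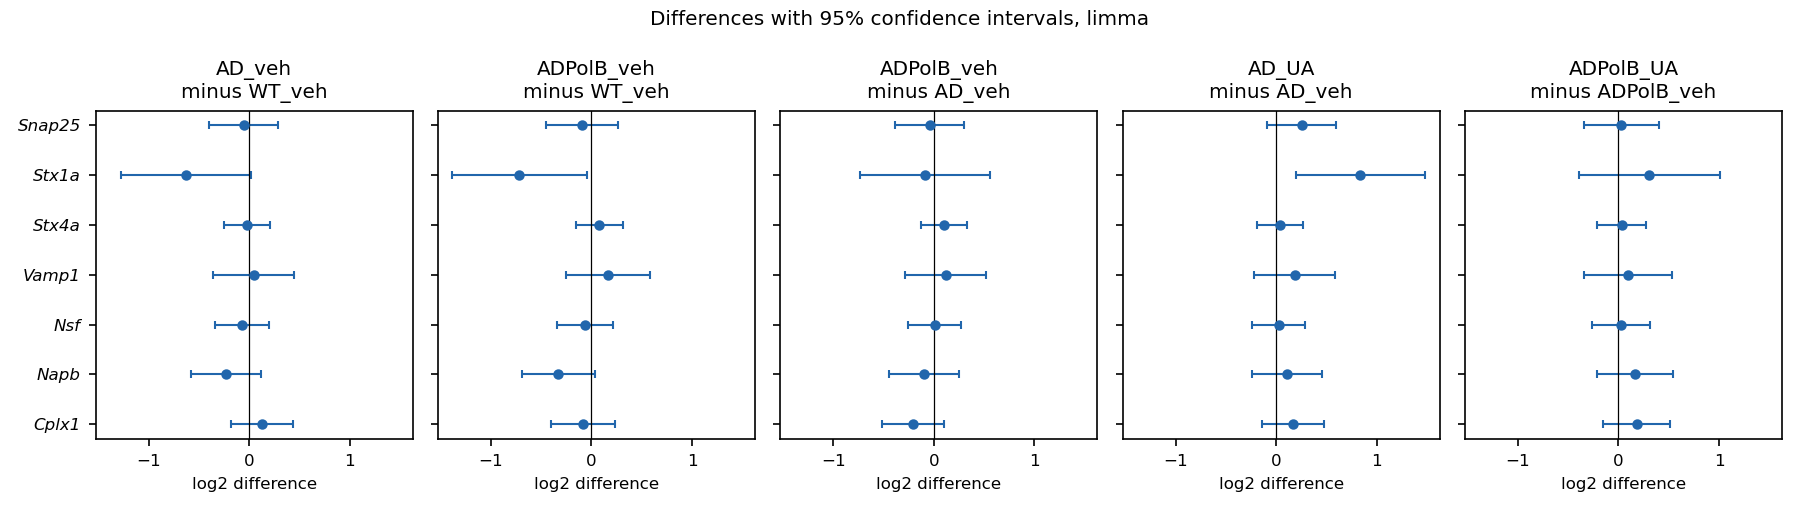
Log2 differences between groups (x axis, limma with sex as a term) for the 7 genes (y axis), with 95% confidence intervals as bars, in the 5 comparisons named above the panels. The interval of *Stx1a* is the widest in each panel and lies clear of 0 in ADPolB_veh minus WT_veh (-0.72) and AD_UA minus AD_veh (0.84), before adjustment for 760 genes.

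Of a list of 76 other genes of vesicle docking and fusion, 14 were on the panel, and limma called none of them in any comparison. In ADPolB_veh against WT_veh 9 of the 14 had a lower mean, beside 38.6% of all genes (median difference -0.07, beside 0.09 for all genes). At an unadjusted p below 0.05 196 of 760 genes passed (25.8%), and of the 14 only 1 did. That gene was *Rab3c*, a GTPase of synaptic vesicles, at 10.01 ± 0.38 (SD, n = 7) in ADPolB_veh, against 10.70 ± 0.48 (n = 7) in WT_veh (-0.67, SE 0.22, adjusted p = 0.178). In AD_UA against AD_veh 8 of the 14 had a higher mean, beside 271 of 760 genes (median 0.06, beside -0.05). At an unadjusted p below 0.05 in ADPolB_UA against ADPolB_veh, 21 of 760 genes were higher and 22 lower (5.66% in all). Of the 14, 3 were higher and 1 lower. The lower one, *Stxbp5l*, encodes tomosyn-2, which competes with synaptobrevin for the plasma-membrane SNAREs. It averaged 8.43 ± 0.23 (n = 6) in ADPolB_UA and 8.82 ± 0.18 (n = 7) in ADPolB_veh (-0.37, SE 0.12, adjusted p = 0.381). *Sv2a*, a vesicle glycoprotein gene, averaged 11.63 ± 0.11 in ADPolB_UA and 11.46 ± 0.15 in ADPolB_veh (0.18, SE 0.08, adjusted p = 0.832). The other 2 higher ones, named after their values were seen, were *Rab3c* (0.61, SE 0.23, adjusted p = 0.563) and *Snap47* (0.26, SE 0.12, adjusted p = 0.855).

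Between mice the 7 genes did not vary as 1 block. *Snap25*, *Stx1a*, *Napb*, *Nsf* and *Cplx1* had a positive r in all 10 of their pairings over the 35 mice, 8 of them past the adjusted threshold, *Stx4a* ran against 3 of them, and *Vamp1* followed *Cplx1* alone. The relations tested were 28, namely 21 pairs of genes and 7 of a gene with the myelin list mean, with permutation p-values from 100000 draws and Benjamini-Hochberg adjustment. Of these 17 passed an adjusted p of 0.05 by Pearson r, 10 positive and 7 negative. All values of a mouse come from 1 normalized measurement, so a shift shared by its genes enters every relation.

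By Pearson r over all 35 mice the closest pair was *Nsf* and *Napb*, the ATPase and its adaptor (Pearson r = 0.80, Spearman rho = 0.70, permutation p = 1e-05 and 2e-05, adjusted p = 4e-05 and 9.33e-05), with r = 0.63 when the 2 mice farthest from the *Nsf* median were left out. The 2 plasma-membrane partners *Snap25* and *Stx1a* gave r = 0.78 (rho = 0.71, permutation p = 1e-05 for both, the smallest that the draws can give, adjusted p = 4e-05 and 5.6e-05) and r = 0.67 without the 2 farthest mice. *Snap25* with *Napb* gave r = 0.75, with the highest rho of the 21 pairs (rho = 0.76, permutation p = 1e-05 for both, adjusted p = 4e-05 and 5.6e-05), and r = 0.71 without the 2 farthest mice, again the highest of the 21. *Stx1a* with *Napb* gave r = 0.75 (rho = 0.71, same p-values) and 0.68 without the 2 farthest. *Snap25* with *Cplx1* gave r = 0.63 (rho = 0.63, permutation p = 6e-05 and 0.0001, adjusted p = 0.000168 and 0.000342) and 0.68. These pairings had r of 0.62 to 0.82 once group and sex were removed.

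*Stx4a* was negatively correlated with *Napb* (r = -0.67, rho = -0.64, permutation p = 1e-05 and 0.00011, adjusted p = 4e-05 and 0.000342) and *Nsf* (r = -0.66, rho = -0.58, permutation p = 2e-05 and 0.00031, adjusted p = 7e-05 and 0.000789). Without the 2 farthest mice both were still at r = -0.60 or below. Both relations shrank when each mouse was centred on its own median, to -0.25 for *Napb* and -0.43 for *Nsf*, and that of *Stx4a* with *Snap25* (r = -0.41, rho = -0.38, permutation p = 0.0155 and 0.0233, adjusted p = 0.0257 and 0.0383) went to -0.04. The 2 syntaxins were not shown to be related (r = -0.30, rho = -0.23, permutation p = 0.0824 and 0.176, adjusted p = 0.110 and 0.206), and their r was 0.15 with that centring. *Vamp1* with *Cplx1* gave r = 0.41 (rho = 0.52, permutation p = 0.0156 and 0.00165, adjusted p = 0.0257 and 0.00385) and 0.33 without the 2 farthest mice, and its relation with *Snap25* was r = 0.09 (rho = 0.07, permutation p = 0.591 and 0.692, adjusted p = 0.591 and 0.718).

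**Figure D3:**
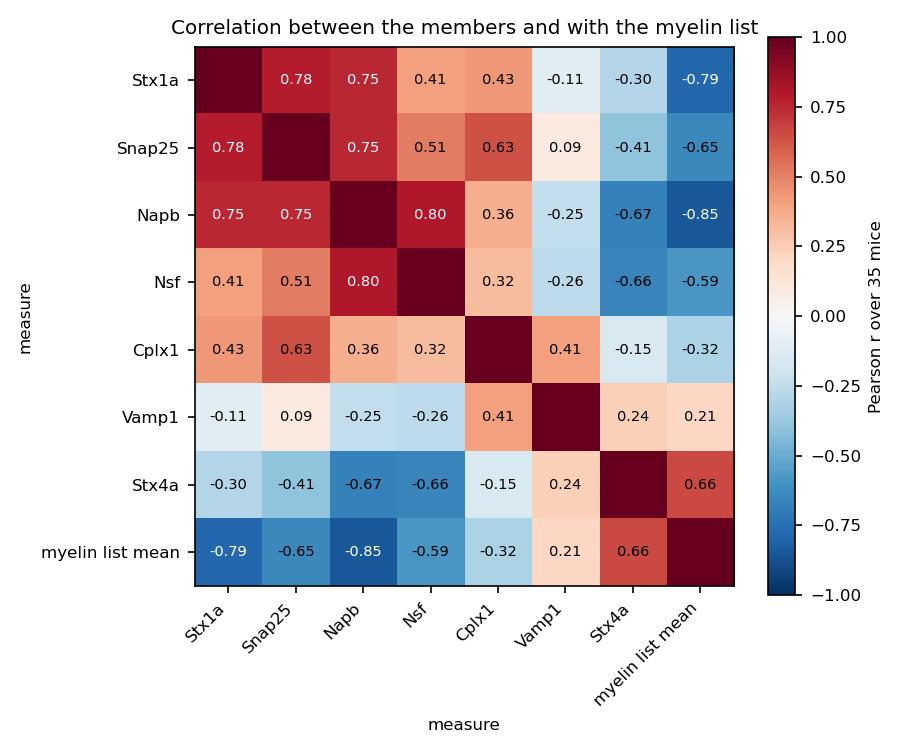
Pearson r over 35 mice between each pair of the 7 genes and with the mean of 24 myelin genes (both axes list the 8 measures; colour runs from blue at -1 to red at 1, and each cell gives its r). Positive values fill the block of *Stx1a*, *Snap25*, *Napb*, *Nsf* and *Cplx1*, whereas the columns of *Stx4a* and of the myelin list are mostly negative against it.

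The relation with myelin genes divided the 7 genes in the same way. *Napb* ran against the myelin list mean most closely (r = -0.85, rho = -0.83, permutation p = 1e-05 for both, adjusted p = 4e-05 and 5.6e-05), followed by *Stx1a* (r = -0.79, rho = -0.79, same p-values). Without the 2 mice farthest from the myelin median these were -0.81 and -0.72, and with group and sex removed -0.84 and -0.80. *Snap25* gave r = -0.65 (rho = -0.67, permutation p = 9e-05 and 5e-05, adjusted p = 0.000229 and 0.0002) and *Nsf* r = -0.59 (rho = -0.49, permutation p = 0.00015 and 0.0034, adjusted p = 0.00035 and 0.00732). *Cplx1* was at r = -0.32 (rho = -0.32, permutation p = 0.0643 and 0.0559, adjusted p = 0.09 and 0.0783) over all mice and at -0.52 without the 2 farthest. Its r passed the threshold with median centring (-0.56, permutation, adjusted p = 0.00084) and with quantile normalization (-0.43, adjusted p = 0.0192). *Stx4a* ran with the list (r = 0.66, rho = 0.60, permutation p = 3e-05 and 0.00015, adjusted p = 9.33e-05 and 0.00042), though its r was 0.13 when mice were centred on their medians. *Vamp1* showed no relation past the threshold (r = 0.21, rho = 0.19, permutation p = 0.232 and 0.282, adjusted p = 0.259 and 0.316). The part of myelin content in the group differences of *Stx1a* was not tested beyond the covariate values above.

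**Figure D4:**
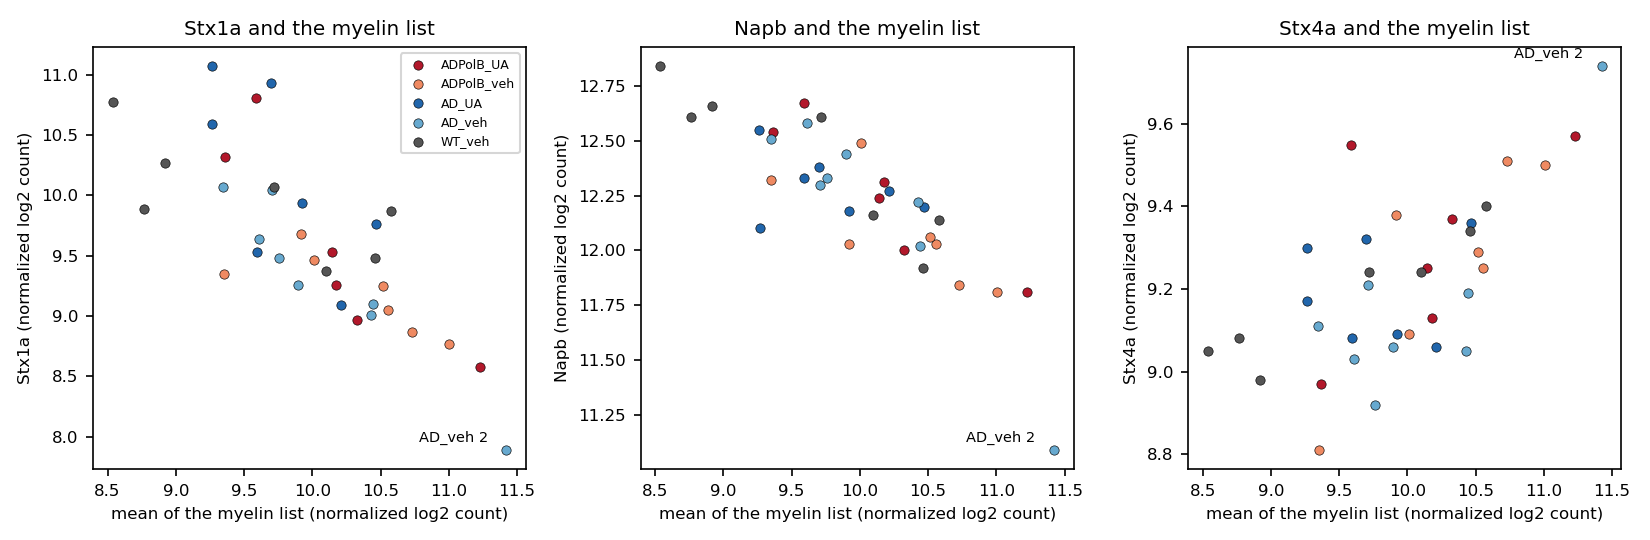
Normalized log2 counts of *Stx1a*, *Napb* and *Stx4a* (y axes) against the mean of 24 myelin genes (x axis, log2), with 1 point a mouse coloured by group. *Stx1a* and *Napb* run downwards (r = -0.79 and -0.85) and *Stx4a* upwards (r = 0.66), with AD_veh 2 at the end of each.

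The genes most alike in pattern were sought among the rest of the panel by Pearson r over the 35 mice after removal of group and sex, as a description. *Stx1a* ran closely with *Syt16*, a synaptotagmin-family gene (r = 0.93), and *Prkar1b*, a regulatory subunit of protein kinase A (0.92). *Syt16* averaged 8.66 ± 0.71 (SD, n = 6) in ADPolB_UA, 8.66 ± 0.25 (n = 7) in ADPolB_veh, 9.02 ± 0.38 (n = 7) in AD_UA, 8.72 ± 0.39 (n = 8) in AD_veh and 9.23 ± 0.35 (n = 7) in WT_veh, with WT_veh and AD_UA above the other 3 means, as for *Stx1a*. *Napb* ran with *Atp6v1c1*, a subunit of the proton pump that acidifies vesicles (0.97), *Syp*, the vesicle protein synaptophysin (0.93), and *Rab3a*, a vesicle GTPase (0.92). *Nsf* ran with *Syn2*, a synapsin (0.93), *Sh3gl2*, the endophilin A1 of vesicle retrieval (0.90), and *Opcml* (0.89). *Snap25* ran with *Sult4a1*, a brain sulfotransferase-family gene (0.88), *Syt1*, the calcium sensor of fast release (0.87), and *Acsl5* (0.87).

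The other 3 genes had neighbours of other kinds. *Vamp1* ran with *Pvalb*, the parvalbumin gene of fast-spiking inhibitory neurons (0.76), and then at a distance with *Olfm3* (0.63) and *Man2a1* (0.56). *Pvalb* averaged 8.76 ± 0.81 (SD, n = 6) in ADPolB_UA, 8.83 ± 0.36 (n = 7) in ADPolB_veh, 9.10 ± 0.53 (n = 7) in AD_UA, 8.87 ± 0.63 (n = 8) in AD_veh and 8.66 ± 0.74 (n = 7) in WT_veh. ADPolB_UA 5 had the highest value of both *Vamp1* (10.59) and *Pvalb* (10.25). *Cplx1* ran with *Cntnap1*, the Caspr gene of the axon beside the node of Ranvier (0.74), *Diras2* (0.71) and *Got1* (0.70). *Stx4a* ran with *Pogk* (0.86), *Samd4* (0.84) and *Kif13b*, a kinesin (0.83).

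**Figure D5:**
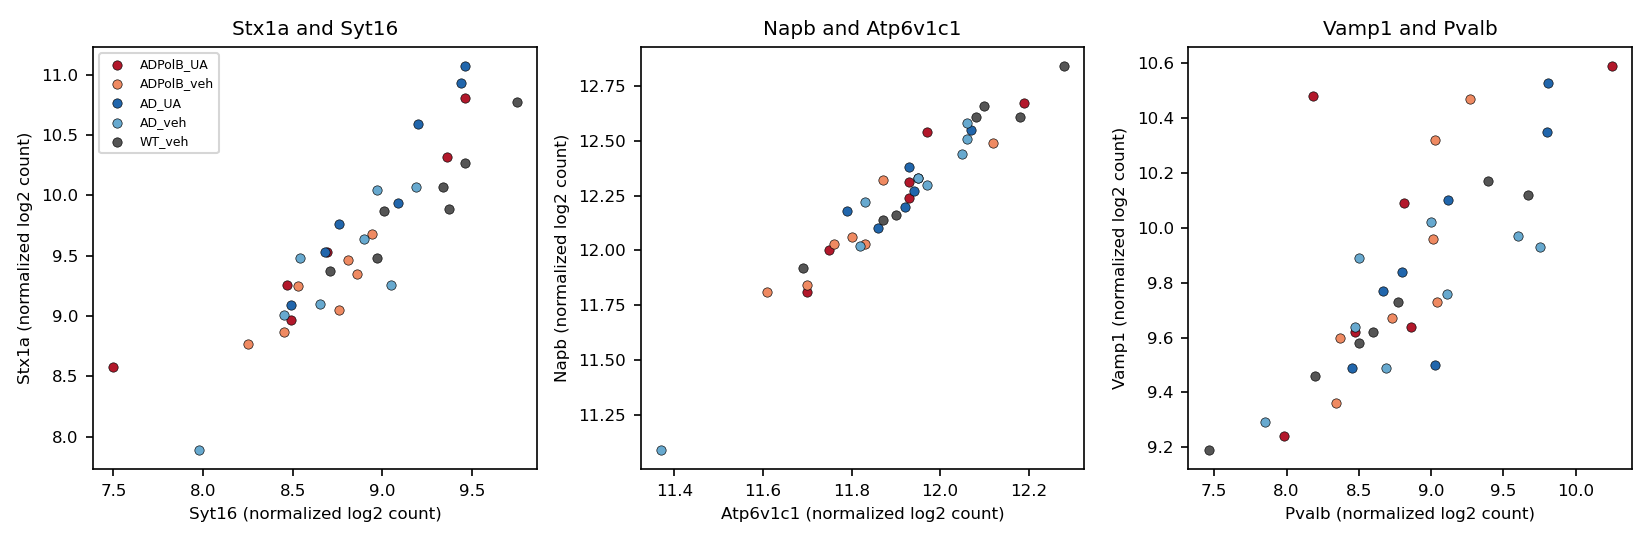
Normalized log2 counts of *Stx1a*, *Napb* and *Vamp1* (y axes) against *Syt16*, *Atp6v1c1* and *Pvalb* (x axes, log2), with 1 point a mouse coloured by group. With group and sex removed r was 0.93, 0.97 and 0.76, and the mice of the 5 groups lie along shared lines, more loosely for *Vamp1*.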

How the data were processed

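Per the labels' protocols, total RNA of hippocampal tissue was hybridised to a NanoString nCounter Alzheimer disease panel, and the series text names Rosalind as the submitters' platform. The values are log2 counts normalized by the authors, as deposited; how they were normalized and whether background was subtracted was not stated in the labels. They were used with no pseudocount, filter or rescaling. The 7 genes and all lists were chosen with earlier results of these data known.

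A linear model with 5 groups and sex was fitted to 760 genes and 35 mice with limma 3.58.1 (R 4.3.3, lmFit, contrasts.fit, eBayes), and tests were two-sided with Benjamini-Hochberg adjustment over 760 genes and a threshold of 0.05. P-values measure the spread between mice. Correlations used 100000 permutations (SciPy 1.17.1, Python 3.11.15). Methods were tested on simulated data. Pathway genes are named by smallest p, up to 4, 1 comparison each, and neighbours are the 3 highest r a gene; some results that these rules name are not reported here. Alternatives were median centring, quantile normalization, no sex term, trend and robust moderation, only the groups compared, sample weights, omission of the dimmest 25% of genes, the replicate number as a block, a myelin covariate and omission of single mice. Omission of AD_veh 2 with AD_UA 3, and of both with AD_UA 8, was added after the values were seen. Of 760 symbols 750 matched RefSeq names. No 2 mice had over 4.21% of values equal within 0.005.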

Additional observations from a re-analysis of the deposited data

Results flagged for a closer look

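In AD_veh, AD_veh 2 stood apart from the other 7 mice for 3 genes. *Stx4a* was at 9.74 there and at 8.92 to 9.21 in the others, *Nsf* was at 12.27 and at 13.10 to 13.50 in the others, and *Napb* was at 11.09 and at 12.02 to 12.58 in the others. The gap to the nearest mouse was 0.646, 0.675 and 0.624 of the range of the group, past Dixon's 95% value for its size. Among 35 combinations of gene and group 3 passed that value, and chance passes about 1 in 20. All 3 came from this mouse, in genes correlated over the 35 mice (*Nsf* with *Napb* r = 0.80, *Stx4a* with *Napb* -0.67 and with *Nsf* -0.66). They are not independent, so that rate does not measure how unusual they are together. The same mouse had the highest *Adora2a* (9.85) and *Pde1b* (11.27), the highest myelin list mean, and the lowest *Stmn2*, a neuronal growth gene (10.09). Its *Eno2*, the other general neuron gene measured, was at 13.13, which was the AD_veh median. Its *Pvalb*, an inhibitory neuron gene, was the highest of AD_veh (9.75). The part of these genes in the values above was not tested.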

How the results depend on the processing

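The precision is limited by 6 to 8 mice a group, and no counts of barcodes were used. Of 504 differences of single genes under other settings 432 kept their direction and side of the threshold, 66 changed sign and 6 passed the threshold (all 6 with sample weights); of 945 with a single mouse left out 861 kept both and 84 changed sign. Of 112 alternative correlations 84 kept both, 10 lost and 8 gained the threshold, and 10 changed sign. The causes were not tested. In the fit of the Results none of the 7 genes passed the adjusted threshold in any comparison, so no difference that turned could have passed it. The data did not show that the replicate numbers pair the mice. The 62 pairs of mice with the same number had a median r of -0.03 between their deviations, from -0.66 to 0.79, 21 of them above 0.1. The median was 0.0015 for 427 pairs with other numbers, and a median does not settle whether some numbers pair mice. With the replicate block Stx1a was at 0.81 in AD_UA minus AD_veh (adjusted p = 0.611), with 0 of the 7 genes called in any comparison. With median centring, the sign turned for Vamp1 -0.021 in AD_veh minus WT_veh, and for Stx4a -0.064 in ADPolB_veh minus WT_veh, and for Nsf -0.069 in ADPolB_veh minus AD_veh, and for Cplx1 -0.013 in the difference between both Urolithin A effects, and for Snap25 0.033 in males minus females. Genes called then numbered 2 in AD_veh minus WT_veh, 2 in ADPolB_veh minus WT_veh and 1 in males minus females. Of the 7 genes those with an unadjusted p below 0.05 then numbered 2 in ADPolB_veh minus WT_veh. The correlation r then turned sign for Stx1a and Stx4a 0.15, Stx1a and Vamp1 0.15, Stx4a and Cplx1 0.020, Vamp1 and Nsf 0.015, Vamp1 and Napb 0.074 and the myelin mean and Vamp1 -0.057. With quantile normalization, the sign turned for Vamp1 -0.030 in AD_veh minus WT_veh, and for Stx4a -0.062 in ADPolB_veh minus WT_veh, and for Nsf -0.0080 in ADPolB_UA minus ADPolB_veh, and for Cplx1 -0.030 in the difference between both Urolithin A effects, and for Snap25 0.043 in males minus females. The count of genes called was then 0 in AD_veh minus WT_veh, 3 in ADPolB_veh minus WT_veh and 1 in males minus females. The correlation r then turned sign for Stx1a and Stx4a 0.10, Stx1a and Vamp1 0.074 and Stx4a and Cplx1 0.050. Without the sex term, the sign turned for Nsf -0.00018 in ADPolB_veh minus AD_veh, and for Stx4a 0.012 and Nsf 0.033 in the difference between both Urolithin A effects. This setting called 1 in ADPolB_veh minus WT_veh. Without a group term, the sign turned for Snap25 0.00082 in males minus females. With trend and robust moderation, genes called numbered 0 in AD_veh minus WT_veh. In fits of only the groups compared, of the 7 genes those with an unadjusted p below 0.05 numbered 1 in AD_veh minus WT_veh and 2 in ADPolB_veh minus WT_veh. Without the dimmest 25% of genes, genes called numbered 0 in AD_veh minus WT_veh. With the replicate number as a block, the sign turned for Snap25 0.017 and Nsf -0.0015 in ADPolB_veh minus AD_veh, and for Nsf -0.010 in ADPolB_UA minus ADPolB_veh, and for Stx4a 0.049 and Cplx1 -0.059 in the difference between both Urolithin A effects, and for Stx4a 0.011 and Vamp1 -0.00062 in males minus females. Genes called then numbered 1 in ADPolB_veh minus WT_veh. Among the 7 genes those with an unadjusted p below 0.05 then numbered 0 in ADPolB_veh minus WT_veh. With the myelin covariate, the sign turned for Snap25 0.11, Vamp1 -0.0098 and Nsf 0.049 in AD_veh minus WT_veh, and for Snap25 0.14, Stx4a -0.080, Nsf 0.11 and Cplx1 0.018 in ADPolB_veh minus WT_veh, and for Snap25 0.033 and Stx1a 0.083 in ADPolB_veh minus AD_veh, and for Nsf -0.049 and Napb -0.024 in AD_UA minus AD_veh, and for Snap25 -0.024 and Nsf -0.018 in ADPolB_UA minus ADPolB_veh, and for Nsf 0.031 in the difference between both Urolithin A effects. The count of genes called was then 27 in males minus females. Of the 7 genes those with an unadjusted p below 0.05 then numbered 0 in ADPolB_veh minus WT_veh and 1 in males minus females. With sample weights, the sign turned for Snap25 0.026 and Cplx1 -0.016 in AD_veh minus WT_veh, and for Nsf -0.17 in ADPolB_veh minus AD_veh, and for Snap25 -0.037, Nsf -0.14 and Napb -0.11 in AD_UA minus AD_veh, and for Stx4a -0.083 in ADPolB_UA minus ADPolB_veh, and for Snap25 0.10, Vamp1 0.00025 and Nsf 0.26 in the difference between both Urolithin A effects, and for Snap25 0.037, Vamp1 -0.058 and Napb 0.0091 in males minus females. This setting called 5 in AD_veh minus WT_veh, 441 in ADPolB_veh minus WT_veh, 209 in ADPolB_veh minus AD_veh, 2 in AD_UA minus AD_veh, 20 in ADPolB_UA minus ADPolB_veh and 21 in males minus females. Of the 7 genes those called then numbered 4 in ADPolB_veh minus WT_veh and 2 in ADPolB_veh minus AD_veh. Among the 7 genes those with an unadjusted p below 0.05 then numbered 1 in AD_veh minus WT_veh, 5 in ADPolB_veh minus WT_veh, 4 in ADPolB_veh minus AD_veh, 0 in AD_UA minus AD_veh, 1 in ADPolB_UA minus ADPolB_veh and 1 in the difference between both Urolithin A effects. Without AD_veh 2 and AD_UA 3, the sign turned for Snap25 0.056 and Nsf 0.047 in AD_veh minus WT_veh, and for Nsf -0.12 in ADPolB_veh minus AD_veh, and for Nsf -0.074 and Napb -0.027 in AD_UA minus AD_veh, and for Nsf 0.11 in the difference between both Urolithin A effects, and for Snap25 0.034 and Napb 0.028 in males minus females. Genes called then numbered 0 in AD_veh minus WT_veh and 1 in males minus females. Of the 7 genes those with an unadjusted p below 0.05 then numbered 0 in AD_UA minus AD_veh. Without AD_veh 2, AD_UA 3 and AD_UA 8, the sign turned for Snap25 0.056 and Nsf 0.047 in AD_veh minus WT_veh, and for Nsf -0.12 in ADPolB_veh minus AD_veh, and for Snap25 -0.039, Nsf -0.063 and Napb -0.071 in AD_UA minus AD_veh, and for Snap25 0.065, Vamp1 0.055 and Nsf 0.10 in the difference between both Urolithin A effects, and for Napb 0.011 in males minus females. Among the 7 genes those with an unadjusted p below 0.05 then numbered 0 in AD_UA minus AD_veh. Without the 2 mice farthest from the median, r turned sign for Snap25 and Vamp1 -0.064. When each mouse was left out in turn, signs turned within these ranges: in AD_veh minus WT_veh Vamp1 -0.031 to 0.13, Stx4a -0.11 to 0.020, Snap25 -0.15 to 0.056, Nsf -0.13 to 0.047, then in ADPolB_veh minus WT_veh Cplx1 -0.16 to 0.0047, then in ADPolB_veh minus AD_veh Snap25 -0.16 to 0.020, Nsf -0.12 to 0.070, Stx1a -0.28 to 0.0019, then in AD_UA minus AD_veh Nsf -0.10 to 0.086, Napb -0.058 to 0.17, Stx4a -0.0014 to 0.13, then in ADPolB_UA minus ADPolB_veh Stx4a -0.036 to 0.099, Snap25 -0.073 to 0.13, Nsf -0.019 to 0.089, Vamp1 -0.038 to 0.22, then in the difference between both Urolithin A effects Stx4a -0.11 to 0.061, Napb -0.014 to 0.24, Cplx1 -0.074 to 0.16, Nsf -0.072 to 0.14, Vamp1 -0.22 to 0.037, then in males minus females Snap25 -0.058 to 0.042, Napb -0.088 to 0.016. Genes called ranged over 0 to 2 in AD_veh minus WT_veh, 0 to 5 in ADPolB_veh minus WT_veh, 0 to 1 in ADPolB_UA minus ADPolB_veh, 0 to 11 in males minus females, and those of the 7 with an unadjusted p below 0.05 over 0 to 1 in AD_veh minus WT_veh, 0 to 2 in ADPolB_veh minus WT_veh.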
